A study of Mus musculus with 8 samples.

Results

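Interleukin 12 (IL-12) and interleukin 18 (IL-18) are cytokines of antigen-presenting cells that act together on CD8+ T cells to raise interferon gamma output. Their receptor pathway is described here by 9 genes: Il12rb1, Il12rb2, Tyk2, Stat4, Il18r1, Il18rap, Myd88, Irak1 and Irak4. The genes were chosen by name, with the difference between the treatments already known, so their differences are given as a description. All 9 were found among the 41730 rows of the count table, and all 9 were among the 13290 genes with enough counts to be tested.

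The cells were mouse OT-I CD8+ T cells, whose transgenic receptor recognises the ovalbumin peptide SIINFEKL. They were cultured with dendritic cells grown from bone marrow of LXR-/- genotype, which lack liver X receptors (LXR) and had been loaded with that peptide. The T cells were then purified by flow cytometry. One group (RGX-104, 4 libraries) received the synthetic LXR agonist RGX-104 at 2 uM, and the other (control, 4 libraries) received the solvent DMSO. The T cells of both groups were OT-I by genotype, and no deletion of LXR in them is given in the labels. No label gives an age, sex or number of donor mice or says that libraries came from separate cultures, so the spread between libraries may be technical. RGX-104 libraries are numbered by their column, since their column names do not say which labelled sample each one is.

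IL-12 binds a receptor made of IL-12Rβ1 and IL-12Rβ2. The kinase TYK2 is bound to the first chain and JAK2 to the second, and they phosphorylate the transcription factor STAT4. IL-18 binds IL-18Rα (encoded by Il18r1), which then recruits IL-18Rβ (encoded by Il18rap). Their intracellular domains draw in the adaptor MyD88, which assembles the kinases IRAK4 and IRAK1 and leads to NF-kB and MAP kinases. In T cells, IL-12Rβ2 and the IL-18 receptor chains are known to be regulated parts of these receptors, whereas TYK2, MyD88, IRAK4 and IRAK1 are broadly expressed.

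With RGX-104, both IL-18 receptor chains were higher, and the IL-12 chain Il12rb2 and its transcription factor Stat4 were lower. Il18r1 was 1.86-fold higher and Il18rap 1.29-fold higher. Il12rb2 was lower by 16.0% and Stat4 by 11.5%. The intracellular transducers of the IL-18 receptor, Myd88, Irak1 and Irak4, differed by less than 4% on average in either direction.

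The sequence just before the start site is shown for these 4 genes, because they are the members that moved. Each is read 5′ to 3′ on the strand of the gene, from RefSeq on GRCm38. Capitals mark matches to the STAT motif TTCNNNGAA or the T-box core TCACAC. For Il18r1 the run covers the 133 bases between the end of the neighbouring gene Il1rl1 and the Il18r1 start (chr1:40465419-40465551, plus strand). For the others it covers 250 bases: Il18rap at chr1:40515112-40515361 (plus strand), Il12rb2 at chr6:67376189-67376438 (minus strand) and Stat4 at chr1:51986898-51987147 (plus strand). The start sites used for Il12rb2 (67376188) and Stat4 (51987148) lie inside the gene spans given below. Part of each of these 2 runs is therefore within the gene, including the T-box match of Il12rb2.
Il18r1: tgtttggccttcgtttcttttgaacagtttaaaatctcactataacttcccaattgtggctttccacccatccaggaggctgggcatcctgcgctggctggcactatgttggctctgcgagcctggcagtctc
Il18rap: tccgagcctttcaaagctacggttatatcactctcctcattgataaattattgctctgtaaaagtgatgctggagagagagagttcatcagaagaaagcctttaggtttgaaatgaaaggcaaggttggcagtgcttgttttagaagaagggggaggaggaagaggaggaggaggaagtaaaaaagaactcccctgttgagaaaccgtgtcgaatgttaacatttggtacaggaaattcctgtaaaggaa
Il12rb2: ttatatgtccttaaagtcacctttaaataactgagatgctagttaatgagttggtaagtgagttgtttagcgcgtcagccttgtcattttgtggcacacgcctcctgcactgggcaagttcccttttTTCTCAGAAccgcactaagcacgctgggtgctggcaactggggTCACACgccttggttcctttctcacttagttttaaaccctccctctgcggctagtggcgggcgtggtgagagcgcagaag
Stat4: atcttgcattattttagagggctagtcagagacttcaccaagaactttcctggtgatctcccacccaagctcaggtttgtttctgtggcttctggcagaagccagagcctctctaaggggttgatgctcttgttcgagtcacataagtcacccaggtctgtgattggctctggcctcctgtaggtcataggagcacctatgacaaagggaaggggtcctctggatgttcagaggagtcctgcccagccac

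Promoters were found for 8 of the 9 members. A single promoter window per gene was searched, with its start nearest to the 5′ end of the gene span. For Il12rb2, Tyk2, Stat4 and Irak4 that start lay inside the span. Il18r1 has 3 windows and Stat4 and Irak1 have 2 each, and their other windows were not searched. Over the 250 bases before the start, on either strand, the STAT motif TTCNNNGAA was present for Il12rb2 and Myd88, where 7.02% of 32851 mouse promoter windows held it. The T-box core TCACAC was present for the same 2 members, against 12.3% of windows, and the matches of the 2 motifs did not overlap. The NF-kB pattern, GGG and CC with 5 bases between them, was present for Tyk2, Irak1 and Irak4, against 45.8% of windows. Neither the AP-1 pattern TGANTCA nor a pair of GGTCA with 4 bases between them was found for any of the 8, against 6.75% and 0.046% of windows. The spacing of that pair is not that of an LXR element, which was not searched for. These matches describe letters in a window and are not binding sites.

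Levels are given as CPM, the counts of a gene scaled to a common library size, with library sizes adjusted by trimmed mean of M values (TMM). The IL-18 receptor chains lie side by side on chromosome 1 of GRCm38. Il18r1 runs from 40465552 to 40500854, and Il18rap from 40515362 to 40551707, with 14507 bases between them.

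Il18r1, the chain that binds IL-18, was at 6.47, 5.86, 5.35 and 7.04 CPM in RGX-104 libraries 1 to 4, against 3.15, 3.57, 3.28 and 3.26 CPM in control libraries 1 to 4. Every RGX-104 library lay above every control library. The mean was 6.18 ± 0.733 CPM with RGX-104 and 3.32 ± 0.176 CPM in controls (SD, n = 4 each), a log2 fold change of 0.90 ± 0.10 (SE). These levels rested on 173 to 224 counts per RGX-104 library and 110 to 121 per control library, so counting error is part of their spread. Of the 640 genes called higher, 37 had a larger change.

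Il18rap, the signalling partner chain, was at 9.48, 8.40, 10.3 and 8.32 CPM in RGX-104 libraries 1 to 4, against 7.89, 7.75, 5.85 and 6.79 CPM in control libraries 1 to 4. The groups did not overlap, but control library 1 lay close below RGX-104 library 4. The log2 fold change was 0.37 ± 0.09 (SE), from means of 9.14 ± 0.957 CPM with RGX-104 and 7.07 ± 0.949 CPM in controls (SD, n = 4 each). Its call was lost without control library 3, without RGX-104 library 3 and with 1 surrogate variable, where the log2 fold change was 0.29, 0.31 and 0.29.

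The chains did not follow each other within the RGX-104 group. RGX-104 library 3 was lowest for Il18r1 and highest for Il18rap, and RGX-104 library 4 was highest for Il18r1 and lowest for Il18rap. There were 1.47, 1.43, 1.93 and 1.18 Il18rap counts per Il18r1 count in RGX-104 libraries 1 to 4, against 2.50, 2.17, 1.78 and 2.08 in control libraries 1 to 4. The ranges of this ratio overlapped through RGX-104 library 3.

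**Figure D1:**
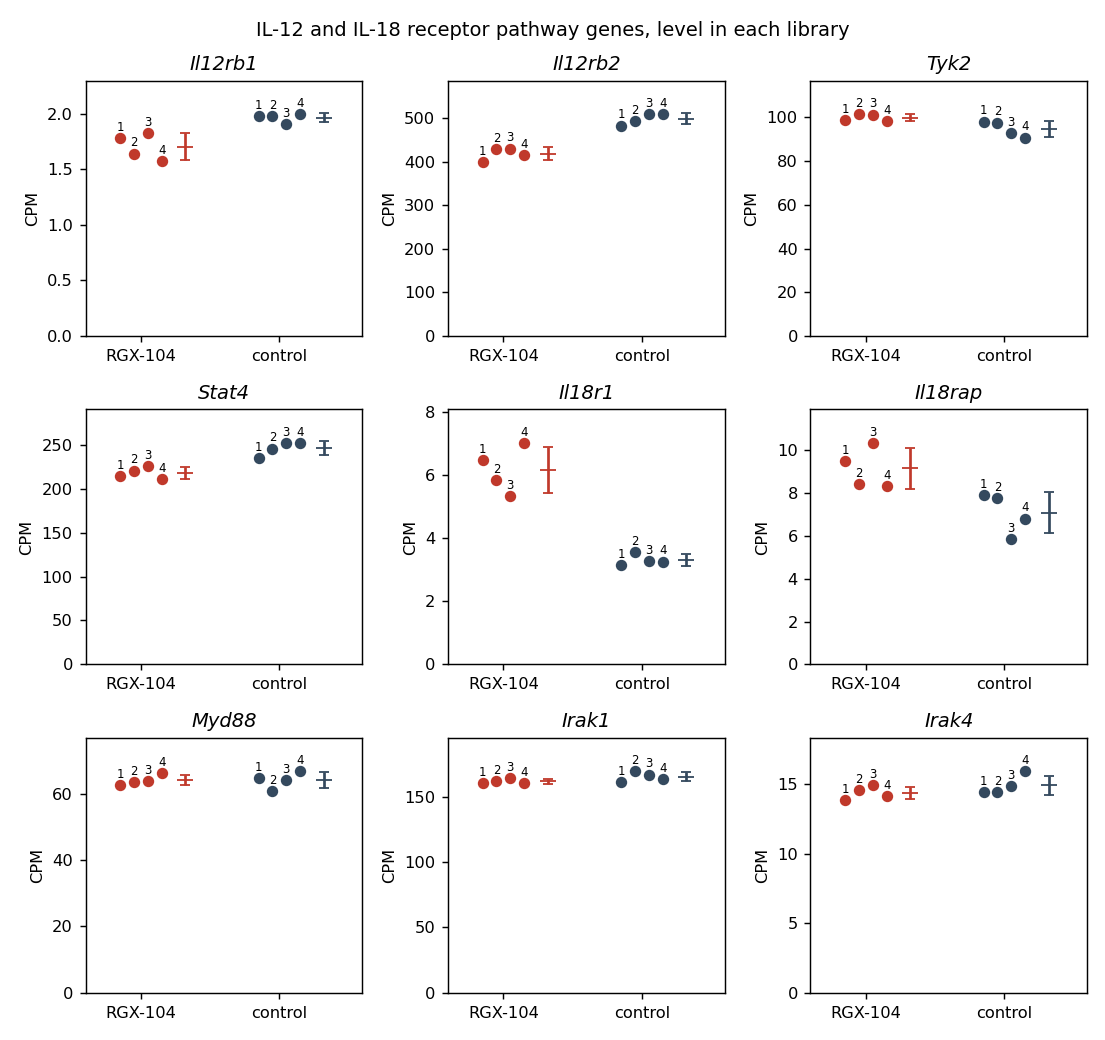
Level of each of the 9 genes in CPM (y axes, from 0) in 4 RGX-104 libraries (red) and 4 control libraries (dark), with library numbers above the points and the mean ± SD beside them. Il18r1 stands at 5.35 to 7.04 CPM with RGX-104 and at 3.15 to 3.57 CPM in controls, while Myd88, Irak1 and Irak4 overlap between the groups.

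Il12rb2, the signalling chain of the IL-12 receptor, was the most abundant member per transcript length. It was at 399, 429, 430 and 415 CPM in RGX-104 libraries 1 to 4, against 483, 492, 509 and 509 CPM in control libraries 1 to 4. All 4 RGX-104 libraries lay below all 4 control libraries. The mean was 418 ± 14.4 CPM with RGX-104 and 498 ± 12.7 CPM in controls (SD, n = 4 each), a log2 fold change of -0.25 ± 0.03 (SE).

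Il12rb2 runs from 67285986 to 67376293 on the minus strand of chromosome 6 and overlaps the end of Serbp1, an RNA-binding protein gene of the plus strand, over 3317 bases. Without the counting strand, reads of that stretch cannot be told apart. Serbp1 was at 1347 ± 16.9 CPM with RGX-104 and 1414 ± 70.3 CPM in controls (SD, n = 4 each), a log2 fold change of -0.07 ± 0.03 (SE), and was not called.

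Stat4, the transcription factor that IL-12 activates, was at 214, 220, 225 and 211 CPM in RGX-104 libraries 1 to 4, against 234, 245, 252 and 252 CPM in control libraries 1 to 4. The groups did not overlap, and the log2 fold change was -0.18 ± 0.03 (SE). There were 0.520 ± 0.0125 Stat4 counts per Il12rb2 count with RGX-104 and 0.494 ± 0.00581 in controls (SD, n = 4 each). Stat4 lies on chromosome 1 from 51987106 to 52107189, and the 2 predicted genes that RefSeq places over it are Gm3940 (489 bases) and Gm31812 (15 bases).

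Tyk2, the kinase bound to IL-12Rβ1, was at 98.6, 101, 101 and 98.4 CPM in RGX-104 libraries 1 to 4, against 98.1, 97.6, 92.6 and 90.7 CPM in control libraries 1 to 4. The groups did not overlap, but the nearest libraries of the 2 groups almost met and Tyk2 was not called. Its log2 fold change was 0.08 ± 0.03 (SE). Tyk2 lies on chromosome 9 from 21104068 to 21131393.

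Il12rb1, the chain that the IL-12 and IL-23 receptors share, was at 1.57 to 1.83 CPM in RGX-104 libraries and at 1.90 to 1.99 CPM in control libraries. It lies on chromosome 8 from 70808360 to 70823542 and had 50 to 59 counts in RGX-104 libraries and 67 to 74 in control libraries. The groups did not overlap, although the log2 fold change of -0.20 ± 0.13 (SE) was not called. The table holds a second row for Il12rb1, a copy on an alternate scaffold, with 0 counts in every library. Reads that match both copies may not have been counted, so this low level is not read as low expression, and Il12rb1 is left out of the order of levels.

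Myd88, the adaptor of the IL-18 receptor, was at 62.6, 63.5, 63.7 and 66.2 CPM in RGX-104 libraries 1 to 4, against 64.8, 60.7, 63.9 and 66.7 CPM in control libraries 1 to 4. Irak1, a kinase of the MyD88 complex, was at 160 to 164 CPM in RGX-104 libraries and at 161 to 169 CPM in control libraries. Irak4, the kinase that acts first in that complex, was at 13.9 to 14.9 CPM in RGX-104 libraries and at 14.4 to 15.9 CPM in control libraries. For these 3 genes the groups overlapped. Their log2 fold changes were -0.00093 ± 0.03, -0.03 ± 0.03 and -0.05 ± 0.06 (SE), in the order just given. Myd88 and Irak4 lie on chromosomes 9 and 15, and Irak1 lies on chromosome X, from 74013914 to 74023921, over the microRNA genes Mir5132 and Mir718, which had at most 1 count.

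Across the 9 members, the edgeR quasi-likelihood test fitted to all 13290 genes called 2 higher and 2 lower at Benjamini-Hochberg adjusted p under 0.05. It called 4.82% of all tested genes higher and 4.13% lower, 8.95% together. The CPM ranges of the groups did not overlap for 6 of the 9 members, Tyk2 and Il12rb1 among them, against 14.5% of all tested genes. The members' median log2 fold change was -0.03. No support is drawn from these counts, since this contrast was known when the genes were chosen. On the adjusted p, Il18rap was the called member nearest to the threshold and Tyk2 the uncalled member nearest to it, with log2 fold changes of 0.37 and 0.08.

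Per length of the longest transcript, the 8 members other than Il12rb1 spanned about 2 orders of magnitude. Il12rb2 was at 140 CPM per kb with RGX-104 and 166 CPM per kb in controls. Stat4 followed at 73.0 CPM per kb with RGX-104 and 82.5 in controls. Irak1 was at 42.1 CPM per kb with RGX-104 and 43.1 in controls, Myd88 at 26.0 in both, and Tyk2 at 20.7 with RGX-104 and 19.6 in controls. Irak4 was at 4.17 CPM per kb with RGX-104 and 4.33 in controls.

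The IL-18 receptor chains were the lowest. Il18rap was at 1.87 CPM per kb with RGX-104 and 1.45 in controls, and Il18r1 at 1.49 with RGX-104 and 0.798 in controls. The order was the same in both groups, and no neighbours in it overlapped between libraries of a group. Per kb, Il18rap ranged from 1.70 to 2.11 and Il18r1 from 1.29 to 1.69 CPM in RGX-104 libraries, so these neighbours nearly met there. There were 59.0 to 80.4 Il12rb2 counts per Il18r1 count in RGX-104 libraries and 138 to 156 in control libraries.

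**Figure D2:**
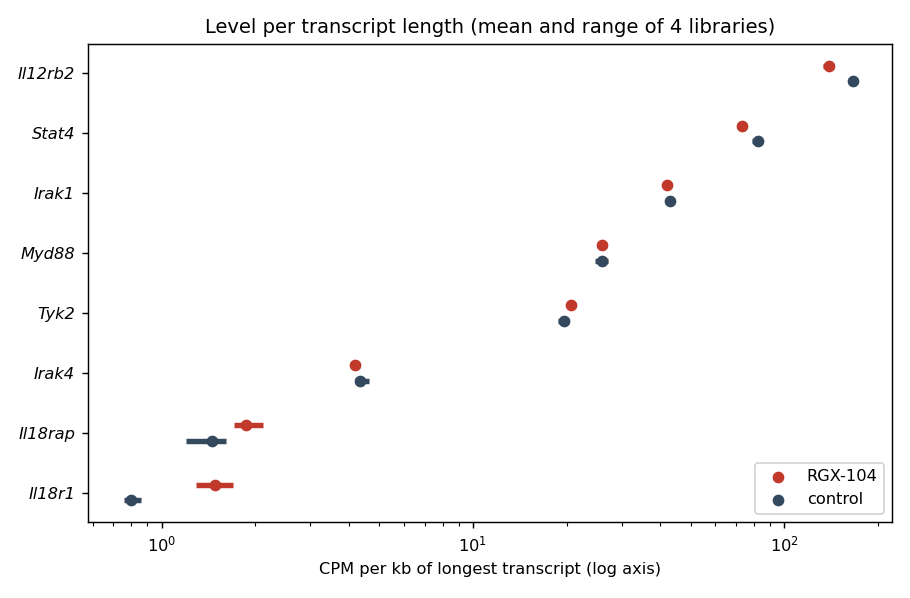
Level per kb of the longest transcript (x axis, CPM per kb, log scale) of 8 genes in RGX-104 libraries (red) and control libraries (dark), as the mean and range of 4 libraries. Il12rb2 is highest, at 140 CPM per kb with RGX-104 and 166 in controls, and Il18r1 is lowest, at 1.49 with RGX-104 and 0.798 in controls.

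The IL-18 receptor genes close a cluster of related IL-1 receptor genes on chromosome 1. Il1rl1, encoding the IL-33 receptor ST2, ends 133 bases before Il18r1 begins, and had 7 to 20 counts in RGX-104 libraries and 7 to 11 in control libraries, too few to be tested. Il1r1, encoding the main IL-1 receptor, had at most 11 counts in any library. Il1rl2, encoding the IL-36 receptor, was at 5.03 ± 0.582 CPM with RGX-104 and 5.26 ± 0.771 CPM in controls, and Il1r2, a decoy receptor, at 0.685 ± 0.129 CPM with RGX-104 and 0.512 ± 0.139 CPM in controls (SD, n = 4 each). Neither was called (edgeR adjusted p = 0.780 and 0.328). A test of Il18r1 against these neighbours was not made.

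Beyond the members, 101 genes of the pathway in 6 lists were examined, 89 of which could be tested. Of these 9 were higher and 12 lower, together 21, where 8.95% of all tested genes were called. The lists had a median log2 fold change of -0.00072 against 0.00072 over all tested genes.

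Among Janus kinases and STAT factors, 0 of 9 were higher and 2 were lower, with a list median of -0.02. Jak2, the kinase bound to IL-12Rβ2, was at 116, 117, 117 and 110 CPM in RGX-104 libraries 1 to 4, against 132, 140, 137 and 138 CPM in control libraries 1 to 4. The groups did not overlap, and the log2 fold change was -0.25 ± 0.03 (SE; edgeR adjusted p = 1.81e-06). Jak1 and Jak3, the kinases of other cytokine receptors, were at 391 ± 12.0 and 364 ± 13.8 CPM with RGX-104 and at 387 ± 10.7 and 368 ± 23.7 CPM in controls (SD, n = 4 each), and were not called.

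Of the ligand genes, 7 of 11 could be tested, and 1 was higher and 1 lower, with a list median of 0.10. The subunit genes of IL-12 itself were near 0, as Il12a had at most 6 counts in any library and Il12b 7 to 14. Il18 was at 0.754 to 0.874 CPM in RGX-104 libraries and at 1.05 to 1.32 CPM in control libraries, which did not overlap, but was not called (log2 fold change -0.50 ± 0.18, SE; edgeR adjusted p = 0.0907). Il18bp, encoding a secreted protein that binds IL-18 and blocks it, was at 6.32 ± 0.549 CPM with RGX-104 and 5.95 ± 0.291 CPM in controls (SD, n = 4 each; edgeR adjusted p = 0.610).

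Il23a, encoding the IL-23 subunit, fell by 0.88 ± 0.25 (log2, SE), with 0.278 to 0.842 CPM in RGX-104 libraries and 0.836 to 1.38 CPM in control libraries. Ebi3, a subunit gene of IL-27 and IL-35, rose by 0.42 ± 0.12 (log2, SE), with 3.11 to 3.87 CPM in RGX-104 libraries and 2.24 to 3.12 CPM in control libraries. Both overlapped at the edge of the groups. The call of Il23a was lost without control library 2 or 3 or RGX-104 library 2 or 3 (log2 fold change -0.85, -0.73, -0.82 and -0.65). Il23a had no adjusted p with DESeq2 or with the stricter filter described below. The call of Ebi3 was lost without any of control libraries 1, 2 and 4 and RGX-104 libraries 1, 2 and 3 (0.34 to 0.43), and with DESeq2 and limma-voom (0.42 and 0.37).

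Of the related receptor genes, 7 of 9 could be tested, 1 was higher and 0 were lower, with a list median of 0.11. Il27ra, encoding the IL-27 receptor, was at 69.7 ± 2.20 CPM with RGX-104 and 64.5 ± 1.83 CPM in controls (SD, n = 4 each), a log2 fold change of 0.11 ± 0.03 (SE) whose call was lost without any of control libraries 3 and 4 and RGX-104 libraries 1, 2 and 3 (0.10 to 0.11). Il1rap, the shared partner chain of the IL-1 and IL-33 receptors, was at 10.6 ± 0.422 CPM with RGX-104 and 9.60 ± 0.504 CPM in controls (SD, n = 4 each; edgeR adjusted p = 0.197).

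**Figure D3:**
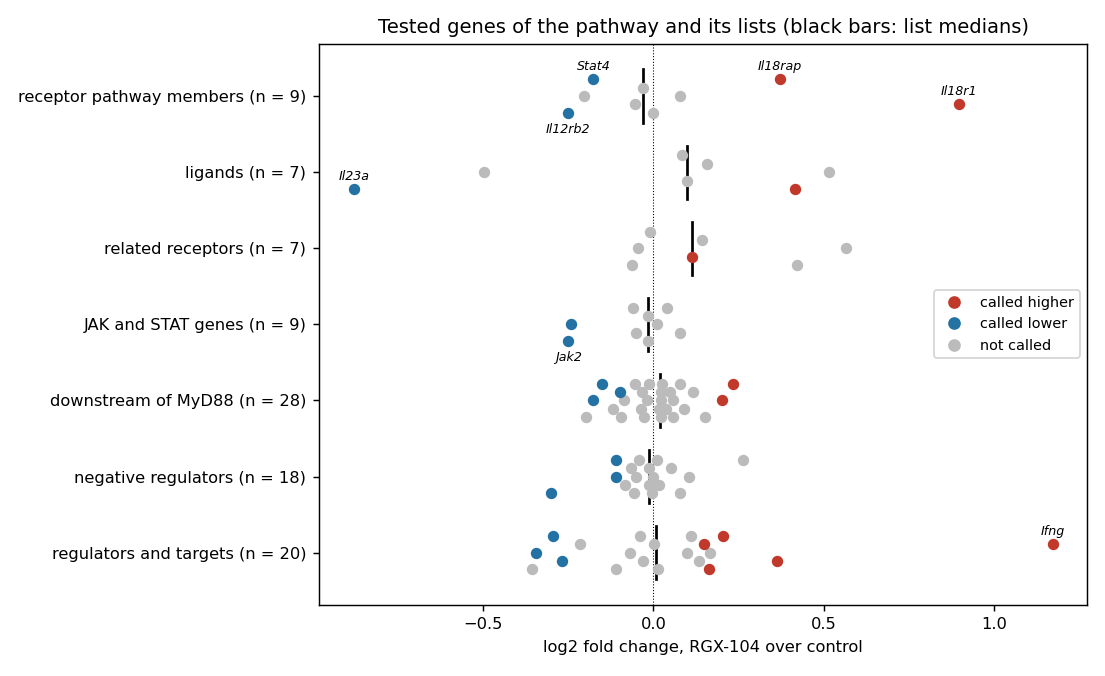
Log2 fold change, RGX-104 over control (x axis), of each tested gene among the receptor pathway members and the 6 other lists (rows), called higher in red, called lower in blue and not called in grey. Black bars are list medians, which lie between -0.03 and 0.11, and Il18r1 at 0.90 and Ifng at 1.17 lie farthest to the right.

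Downstream of MyD88, 28 of 31 genes could be tested, 2 were higher and 3 lower, and the list median was 0.02. Gadd45g and Mapk11, which encode parts of the p38 MAP kinase branch, were higher by 0.23 ± 0.06 and 0.20 ± 0.06 (log2, SE). Irak2, a kinase related to IRAK1, fell by 0.18 ± 0.05, the ubiquitin-conjugation cofactor Ube2v1 by 0.15 ± 0.04 and the NF-kB subunit gene Nfkb1 by 0.10 ± 0.03 (log2, SE). Traf6, the ubiquitin ligase that IRAK1 engages, was at 112 to 121 CPM in RGX-104 libraries and at 114 to 126 CPM in control libraries (edgeR adjusted p = 0.348).

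Some calls in this branch depended on single libraries. Gadd45g lost its call without control library 2 or 3 or RGX-104 library 1 or 4 (0.19 to 0.22), and Mapk11 without control library 2 or 3 or RGX-104 library 1, 2 or 4 (0.17 to 0.22). Irak2 lost its call without control library 3 or RGX-104 library 1, 2 or 4 (-0.18 to -0.14).

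Of the 18 negative regulators, 0 were higher and 3 lower, with a list median of -0.01. Usp18, which restrains type I interferon signalling, fell by 0.30 ± 0.06 (log2, SE), with 9.81 to 10.4 CPM in RGX-104 libraries and 11.6 to 13.1 CPM in control libraries. The phosphatase genes Ptpn1 and Ptpn11 both fell by 0.11 ± 0.03 (log2, SE). Ptpn1 lost its call without RGX-104 library 2 or 3 (-0.10 and -0.11), and Ptpn11 without control library 1 or 2 or RGX-104 library 1, 2 or 4 (-0.10 to -0.09). Socs1 and Socs3, inhibitors of JAK signalling, were at 46.7 ± 5.08 and 24.0 ± 1.51 CPM with RGX-104 and at 47.2 ± 1.70 and 25.4 ± 0.777 CPM in controls (SD, n = 4 each; edgeR adjusted p = 0.923 and 0.314).

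Of the regulators and targets of the pathway, 20 of 23 could be tested, 5 were higher and 3 lower, and the list median was 0.0061. Tbx21, encoding T-bet, which is known to support Il12rb2 and Il18r1 expression, was at 146, 134, 135 and 143 CPM in RGX-104 libraries 1 to 4, against 172, 158, 166 and 175 CPM in control libraries 1 to 4. It lay lower in every RGX-104 library, as Il12rb2 did, whereas Il18r1 lay higher. Gata3, which is known to oppose Il12rb2 and Stat4 in helper T cells, was higher at 13.1 ± 1.18 CPM with RGX-104 and 10.2 ± 0.842 CPM in controls (SD, n = 4 each). A part of Tbx21 or Gata3 in the changes of the members was not tested. The interferon-linked regulators Irf1 and Irf8 were lower, at 200 ± 3.18 and 557 ± 11.1 CPM with RGX-104 and 254 ± 7.75 and 683 ± 16.8 CPM in controls (SD, n = 4 each). The cytotoxic effector genes Gzmb and Prf1 and the protease gene Furin were higher by 0.20, 0.16 and 0.15 (log2).

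Ifng, the main target of IL-12 with IL-18, was at 89.0, 64.2, 64.0 and 88.3 CPM in RGX-104 libraries 1 to 4, against 30.2, 32.7, 33.5 and 38.8 CPM in control libraries 1 to 4. RGX-104 libraries 1 and 4, the higher pair for Ifng, were also the higher pair for Il18r1, and libraries 2 and 3 the lower pair for both. RGX-104 libraries 2 and 3 were the pair closest to each other over all genes, with a chi-square per degree of freedom of 1.36, and libraries 1 and 4 followed at 2.33. Whether the libraries of these pairs share a source was not tested. When each pair was summed, so that RGX-104 counted as 2 samples, the calls of all 4 members remained.

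**Figure D4:**
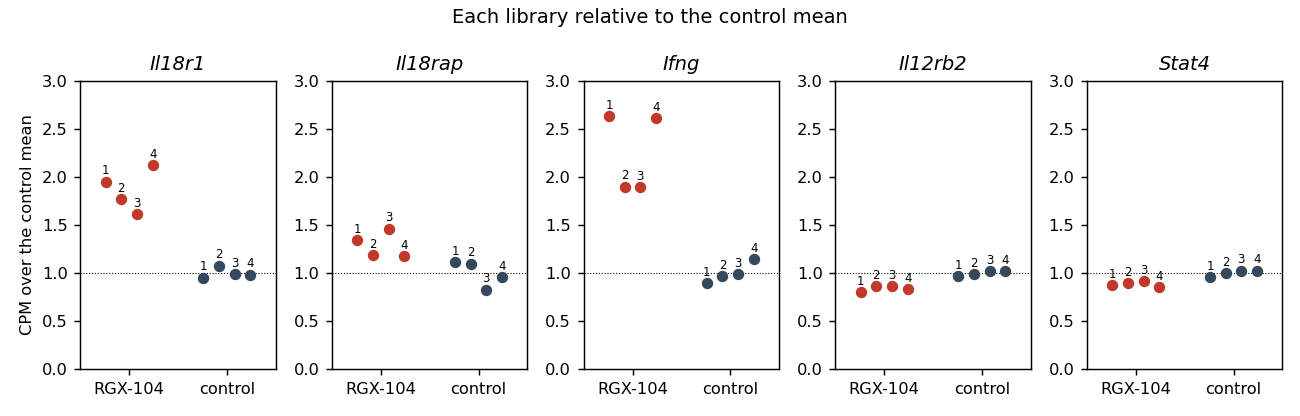
CPM of 5 genes in each library divided by the control mean of the gene (y axis, from 0; dotted line at 1), in RGX-104 libraries (red) and control libraries (dark) with library numbers. RGX-104 libraries 1 and 4 lie above libraries 2 and 3 for Il18r1 and Ifng but not for Il18rap, and Il12rb2 and Stat4 lie below the line in all 4 RGX-104 libraries.

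The genes with the most similar profile were sought for the 3 called members with the largest changes. The search covered 9837 other tested genes with a mean log2 CPM of at least 1. Predicted gene models, T cell receptor segments and scaffold copies were left out. Likeness was the root mean square difference between the genes' log2 deviations from their own mean over the 8 libraries, which includes the difference between the groups. Among the 4 nearest to Il12rb2 were the surface antigen gene Ly6a (0.0246), the apoptosis effector gene Bak1 (0.0281) and Cd96 (0.0290), all at -0.21 to -0.26 between the groups. Nearest to Il18r1 were Map3k20 (0.118), the retinoic acid-binding protein gene Crabp2 (0.129) and the lipid synthesis genes Srebf1 (0.133) and Scd1 (0.138). Nearest to Il18rap were Syne2 (0.0998), the chemokine receptor gene Cxcr5 (0.107), Exoc3l (0.114) and Sord (0.115).

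Library totals were 30642316 to 35244624 counts with RGX-104 and 33942140 to 37714355 counts in controls. The 9 markers of CD8 T cells were all tested. They summed to 3353 to 3408 CPM in RGX-104 libraries and 3444 to 3559 CPM in control libraries. The 1 called higher was Lck (log2 fold change 0.098), which has a scaffold copy, so its level is not read. Those called lower were 4, Cd3e, Cd8a, Cd8b1 and Cd247, by 0.12 to 0.18 (log2). In bulk RNA, fewer cells of a type and less RNA per cell cannot be told apart. The part of this fall in the lower Il12rb2 and Stat4 was not tested.

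Natural killer cells also carry IL-18 receptors. Of their 6 markers, Ncr1 and Klra8 had 0 counts in every library (Klra8 has a scaffold copy and is not read). Klrb1c had at most 1 count and Klrb1b at most 3. Klre1 had 14 to 33 counts per library and was not called (log2 fold change 0.19 ± 0.25, SE). The 6 summed to 3.53 to 5.66 CPM in RGX-104 libraries and 6.08 to 8.80 CPM in control libraries, most of it Gzma. Gzma, which CD8 T cells also express, was called lower (log2 fold change -0.74 ± 0.17, SE). Of 9 macrophage markers 1 could be tested, Ctss, which was higher, and Lyz2 had at most 5 counts and Csf1r at most 2. These 9 summed to 33.9 to 36.6 CPM with RGX-104 and 26.0 to 29.1 CPM in controls. Nearly all of it was Ctss, with means of 34.7 CPM with RGX-104 and 27.1 CPM in controls. The 14 dendritic cell markers summed to 131 to 146 CPM with RGX-104 and 119 to 129 CPM in controls. Most was Cst3, Batf3 and Cd74 (means 48.8, 39.1 and 33.2 CPM with RGX-104, 48.1, 37.9 and 26.5 in controls). Cd74 and Ccl22, 2 of 8 tested, were called higher. All 8 had a positive log2 fold change, with a list median of 0.30 against 0.00072 over all tested genes. Xcr1, Clec9a, Cd209a and Siglech had at most 7 counts. Of these 14, H2-Aa and H2-Ab1 had 0 counts in every library, but both have scaffold copies and are not read. The part of these sums in the higher Il18r1 was not tested. The 4 markers of CD4 or regulatory T cells summed to 50.7 to 60.1 CPM with RGX-104 and 48.9 to 59.6 CPM in controls. Most of it was Ikzf2 (means 50.4 CPM with RGX-104 and 49.8 in controls), with Cd4 at 14 counts or fewer and Zbtb7b lower. The 5 B cell markers summed to 4.37 to 4.70 CPM with RGX-104 and 3.96 to 5.45 CPM in controls, most of it Cd79b, with Ms4a1 at 0.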

How the data were processed

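The authors deposited RNA sequencing of 8 libraries as a single table of raw, unscaled read counts by gene. GRCm38 is the build named, per the submitters' processing notes, which also list DESeq2 1.4, R 4.1.0, STAR 2.7.5 and cutadapt 2.10. For the counting tool, the annotation and the strand, the setting is not given in the sources used here.

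From the deposited counts, genes were kept with filterByExpr (minimum count 10, minimum total 15), scaled by TMM and tested with the quasi-likelihood test of edgeR 4.0.16 in R 4.3.3, robust, with treatment as the only term. Calls used Benjamini-Hochberg adjusted p under 0.05 over all tested genes. Standard errors were derived from the F statistic. CPM per kb used the longest GENCODE transcript of each symbol. The scripts were tested on simulated data. Coordinates and promoters came from RefSeq on GRCm38.

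The members and lists were chosen with earlier results of these data known. Of each list, up to 4 called genes with the largest changes were named, along with all members and a fixed set of pathway genes. Nfkb1, Gzmb, Prf1, Furin and genes named as uncalled, as neighbours or as markers were added after their values were seen. Alternatives were DESeq2 1.42.0, limma-voom (limma 3.58.1), RLE and upper-quartile scaling, no filter and a stricter filter, a surrogate variable from sva 3.50.0, summing the closest RGX-104 pairs, leaving out each library and, added after seeing the data, a block on the number in the column names. One gene that the naming rule selected is not reported here.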

Additional observations from a re-analysis of the deposited data

Results flagged for a closer look

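Among the named genes with at least 10 counts in some library, 3 groups of 4 libraries held a value far from the other 3, out of 68 groups checked, where chance gives about 1 in 20. The IL-33 receptor gene Il1rl1, the neighbour of Il18r1, was at 0.628 CPM in RGX-104 library 4 and at 0.198 to 0.247 CPM in the other RGX-104 libraries. That library also had the highest Il18r1, 7.04 CPM. The partner chain gene Il1rap was at 10.4 CPM in control library 4 and at 9.27 to 9.43 CPM in the other controls. The phosphatase gene Ptpn11 was at 185 CPM in RGX-104 library 3 and at 176 to 177 CPM in the others of its group. None of the 9 members held such a value.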

How the results depend on the processing

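Of the 4 members called, Il18r1, Il12rb2 and Stat4 kept their call and direction in all 17 alternatives, at log2 fold changes of 0.83 to 0.96, -0.27 to -0.23 and -0.20 to -0.16. Il18rap kept its direction at 0.29 to 0.43 but lost its call in 3, so members called higher numbered 1 with 1 surrogate variable and 1 to 2 when leaving out libraries. No other member gained a call. Summing the closest RGX-104 pairs left 358 genes higher and 264 lower over all genes, against 640 and 549, and 4 higher and 6 lower among the other pathway genes, against 9 and 12. Without a filter 14 other pathway genes were higher. Leaving out 1 library gave 4 to 9 higher and 7 to 12 lower among them. Among the named pathway genes, summing pairs ended the calls of Il23a, Ebi3, Il27ra, Gadd45g, Mapk11, Irak2, Ube2v1, Ptpn1 and Ptpn11, DESeq2 those of Ebi3, Il27ra, Mapk11 and Irak2, 1 surrogate variable those of Il27ra, Mapk11 and Irak2, limma-voom that of Ebi3 and upper-quartile scaling that of Irak2. Neither DESeq2 nor the stricter filter gave Il23a an adjusted p. For the other pathway genes, leaving out control library 2 or 3 (5 each) or RGX-104 library 1 (4) moved the higher count most. Leaving out RGX-104 library 2 (7) moved the lower count most. The near-zero difference of Myd88 turned positive with limma-voom (0.0077), upper-quartile scaling (0.011), the stricter filter (0.0012) and 1 surrogate variable (0.024), and ranged from -0.025 to 0.020 when leaving out libraries. Socs1 turned positive with 1 surrogate variable (0.017) and ranged from -0.085 to 0.029. The causes were not tested. The labels number the groups apart, but the column names number both alike. A replicate block on the column number, chosen after seeing the data, gave 1109 genes higher and 906 lower over all genes and 16 higher and 14 lower among the other pathway genes. It changed no call of a named gene, and Myd88 was at 0.00013. Same-numbered libraries correlated at 0.15, 0.080, 0.045 and 0.17 in their deviations from the group means, and all 4 RGX-104 libraries correlated best with their own number, a hint from the data and not from the design. Among the members, Il12rb1, Il18r1 and Il18rap had the fewest counts, and Il12b, Il23a, Il18 and Ebi3 had fewer than Il18rap.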
